A study of Mus musculus with 5 samples.

Results

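Wnt proteins are secreted, lipid-modified signals that bind Frizzled receptors together with co-receptors such as Lrp5 and Lrp6, and thereby keep β-catenin from being degraded so that it can reach TCF and LEF factors on DNA. Secreted inhibitors of the Sfrp, Dkk and Wif families act outside the cell, and R-spondins with their Lgr receptors hold back the ubiquitin ligases Rnf43 and Znrf3 that remove Frizzled from the membrane. In the kidney the pathway builds nephrons during development, and it is known for being switched on again after tubular injury and in interstitial fibrosis. The 61 genes described here are the Wnt ligands, their receptors and their regulators, chosen by symbol from the 35478 genes that the deposited tables list, and all 61 symbols were found. They comprise 19 Wnt ligands, 2 genes for ligand maturation and secretion, 10 Frizzled receptors, 5 co-receptors, 9 secreted inhibitors, 9 genes of the R-spondin module, and 7 genes for β-catenin, the Axin scaffolds and the TCF/LEF factors.

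RNA-seq was performed on the injured left kidney (cortex, per the study's methods) of 2 control mice (Prdm16fl/fl, numbered 1 and 3) and 3 tubular knockout mice (Ksp-Cre/Prdm16fl/fl, numbered 1, 2 and 3), 1 library each, to find what loss of the transcriptional regulator PRDM16 from tubular epithelium does to the expression profile. All 5 mice were male, were labelled as strain C57BL/6J;129 (C57BL/6J in the sample titles), were homozygous for a floxed Prdm16 allele with loxP sites around exon 9, and underwent unilateral ischemia-reperfusion injury (UIRI): the left renal pedicle was clamped for 35 minutes on a bath at 38.5°C, the right kidney was taken out on day 10 and tissue was collected on day 11. The Ksp-Cre/Prdm16fl/fl mice also carried Cre driven by the Ksp-cadherin promoter, which is active in tubular epithelial cells and not in stroma, endothelium or leukocytes. Uninjured kidneys were not analysed here, so each comparison sets knockout against floxed control after the same injury. In bulk kidney RNA, fewer cells of a type and less RNA per cell cannot be told apart.

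Total counts per library ran from 14939040 to 16425161. Prdm16 itself had a TMM-scaled CPM (counts per 1000000 counts) of 25.3 and 20.02 in control mice 1 and 3 and of 17.1, 17.0 and 17.99 in knockout mice 1, 2 and 3, a log2 difference of -0.38 that did not pass edgeR's quasi-likelihood test with Benjamini-Hochberg adjustment (adjusted p = 0.259). This checks the labels only in part, since loxP flanks 1 exon and cells outside the tubule keep the gene. Ksp-Cre/Prdm16fl/fl mouse 3 stood apart: its log2 CPM correlated at 0.957 and 0.960 with the other knockout libraries, which correlated with each other at 0.991 (Pearson, across genes). Kidney epithelium was well represented in all libraries by its markers, but the summed level of 14 proximal tubule markers was 24765 to 34376 CPM per kb in Prdm16fl/fl and 6607 to 14299 in Ksp-Cre/Prdm16fl/fl kidneys, and that of 10 injured-tubule markers 8134 to 8807 against 17679 to 22022. Each sum, and its order among the knockouts, is mostly that of 1 gene. By mean TPM, a level per length, Kap was at 34021 (next Slc27a2, 2224) and Spp1 at 34327 (next Lcn2, 773). Gene by gene, all 14 proximal markers had a lower mean, 13 without overlap (92.9%, beside 41.6% of all genes). All 10 injured-tubule markers had a higher mean, 9 without overlap (90%). Their part in the results was not tested.

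Of the 61 genes, 48 had enough counts to be tested. Wnt2, Wnt7a, Wnt11 and Dkk1 had at most 7 counts in a control library and passed the count filter through the knockout kidneys alone. Such genes could enter only with a higher knockout mean. By edgeR's quasi-likelihood test with Benjamini-Hochberg adjustment over 16394 genes, 0 of the 48 passed an adjusted p of 0.05, a threshold passed by 0.976% of all genes tested (0.104% higher and 0.872% lower, and 0.708% passed it with a log2 difference of 1 or more in size). An unadjusted p under 0.05 was reached by 12 of the 48 (25.0%), 9 with a higher and 3 with a lower mean in Ksp-Cre/Prdm16fl/fl kidneys, where 18.8% of all genes reached it (7.64% higher and 11.2% lower). The knockout libraries lay entirely above or below both control libraries for 20 of the 48 (41.7%), 15 above and 5 below, which is near the 41.6% of all genes (20.3% above, 21.3% below). The median log2 fold change of the 48 was 0.19, with 35 higher and 13 lower, against a median of 0.038 over all genes with 8857 higher and 7537 lower. DESeq2 called 4 of the 43 it gave an adjusted p (Dkk3, Wnt4 and Wnt11 higher, Sfrp2 lower), and 7.54% of all genes (1.98% higher, 5.56% lower). Without Ksp-Cre/Prdm16fl/fl mouse 3 the edgeR test called 14 of 48 and 18.9% of all genes. The log2 fold changes of the tested genes are plotted by role.

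**Figure D1:**
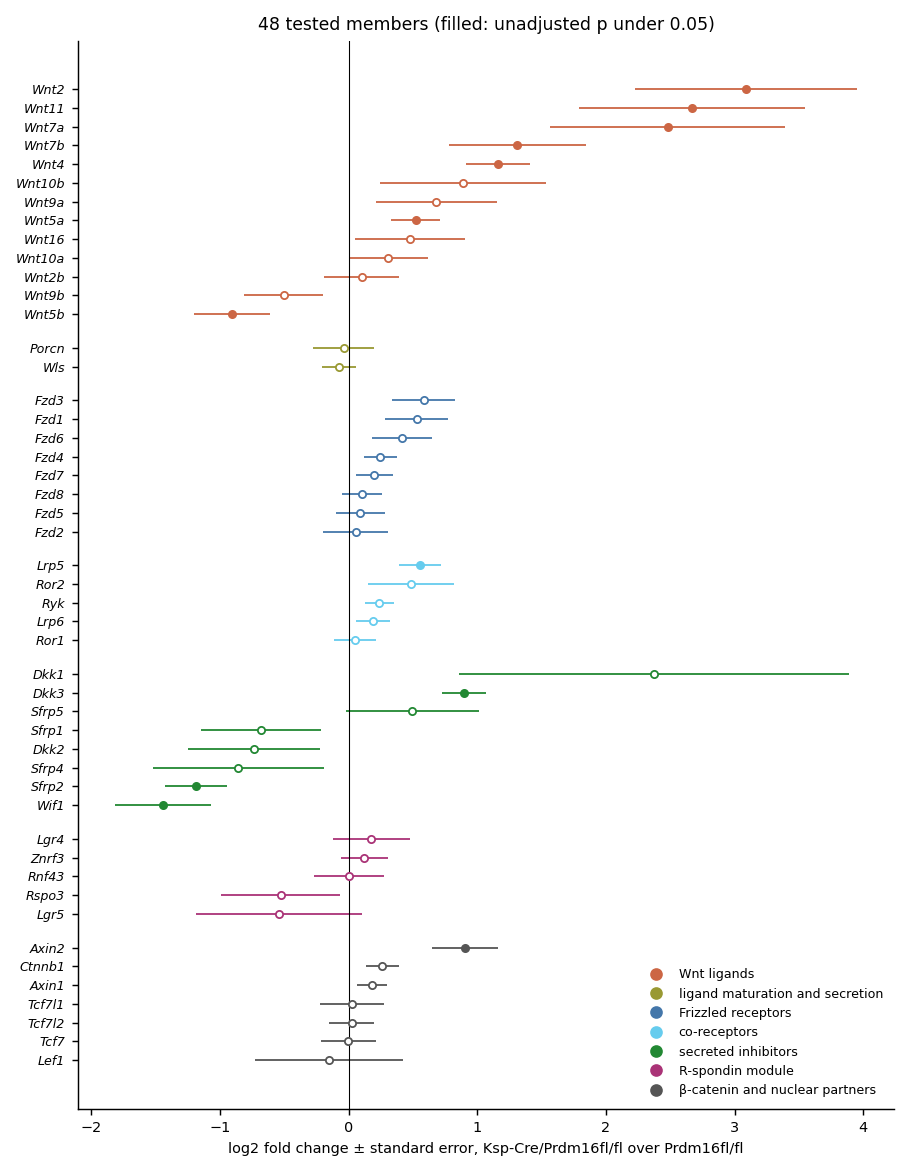
Log2 fold change (Ksp-Cre/Prdm16fl/fl over Prdm16fl/fl, x axis) with its standard error for the 48 tested genes, grouped and coloured by role; filled points have an unadjusted p under 0.05. The 8 Frizzled receptors and 5 co-receptors tested lie to the right of 0, while the Wnt ligands run from -0.91 to 3.09 and the secreted inhibitors from -1.44 to 2.37; the values of Wnt2 and Dkk1 rest on 3 counts in the controls together.

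The 4 genes called by DESeq2 are a pair of ligands and a pair of secreted inhibitors. In the files, whose genome build is not named beyond a human one in the submitters' notes, Wnt4 lies on the plus strand of chromosome 4 (137004946 to 137026812), Wnt11 on the plus strand of chromosome 7 (98484293 to 98503954), Sfrp2 on the plus strand of chromosome 3 (83673628 to 83681621) and Dkk3 on the minus strand of chromosome 7 (111715226 to 111758689). The sequences that follow are the 250 bases before a start site of Sfrp2, Wnt4 and Wnt11 in RefSeq (GRCm38.p6, plus strand, 5′ to 3′), shown because these called genes have an entry there and TCF/LEF factors bind DNA at a short core. Capitals mark a match to that core, spelled CTTTG and then 2 bases that are each A or T, and searched on both strands.
Sfrp2 (chr3:83766071-83766320): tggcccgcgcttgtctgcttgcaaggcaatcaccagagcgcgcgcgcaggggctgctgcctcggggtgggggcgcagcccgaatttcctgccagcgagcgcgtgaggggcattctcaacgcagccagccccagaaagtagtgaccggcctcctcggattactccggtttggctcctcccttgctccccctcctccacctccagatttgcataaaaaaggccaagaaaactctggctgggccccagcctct
Wnt4 (chr4:137277385-137277634): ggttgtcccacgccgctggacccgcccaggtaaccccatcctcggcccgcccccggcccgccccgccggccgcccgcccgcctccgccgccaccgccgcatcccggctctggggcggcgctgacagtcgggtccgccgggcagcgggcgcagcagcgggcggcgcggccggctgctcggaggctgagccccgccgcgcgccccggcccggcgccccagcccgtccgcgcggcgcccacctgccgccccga
Wnt11 (chr7:98834862-98835111): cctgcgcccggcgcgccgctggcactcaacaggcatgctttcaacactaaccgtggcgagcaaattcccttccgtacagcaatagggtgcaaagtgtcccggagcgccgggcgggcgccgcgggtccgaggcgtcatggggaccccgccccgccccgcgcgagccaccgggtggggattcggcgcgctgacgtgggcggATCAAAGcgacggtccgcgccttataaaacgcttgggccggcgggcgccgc
The Wnt11 window holds 1 match, ATCAAAG, on the reverse strand of the core, with its first base at -51 from the start site. A second Wnt11 start site and the windows of Sfrp2 and Wnt4 hold 0 matches. The windows were 85.2% G or C for Wnt4, 70.8% for Wnt11 and 63.6% for Sfrp2. Over windows that also included 50 bases after the start, 7 of 51 promoters of the 41 genes with an entry held a match (13.7%), beside 16.9% of all 32851 promoters.

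Of the 19 Wnt ligands, 13 were tested, 11 with a higher and 2 with a lower mean in Ksp-Cre/Prdm16fl/fl kidneys, with a median log2 fold change of 0.68. With 1 mouse left out, Wnt10a and Wnt2b took the opposite sign (down to -0.0018 and -0.04), as no ligand did under another scaling. Of the 13, 7 had an unadjusted p under 0.05 (6 higher, 1 lower, beside 18.8% of all genes). The groups of 8 did not overlap (6 above, 2 below, beside 41.6% of all genes). Wnt2, Wnt7a and Wnt11 are among the 6 higher and the 6 above, and they passed the count filter through the knockout kidneys alone. They also enter the 11 ligands with a higher mean and the median.

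Wnt4, the ligand that drives mesenchyme to form nephron epithelium, had 5.80 and 6.10 CPM in Prdm16fl/fl kidneys and 13.8, 16.0 and 10.1 CPM in Ksp-Cre/Prdm16fl/fl kidneys. All knockout libraries were above both controls, at means of 13.3 ± 2.97 (SD, n = 3) and 5.95 ± 0.213 (SD, n = 2). The log2 fold change was 1.162 (SE 0.25, a 2.24-fold higher level), with an adjusted p of 0.0834 by edgeR's quasi-likelihood test and of 0.00311 by DESeq2. Leaving out each mouse in turn kept the Wnt4 log2 fold change between 1.01 and 1.33.

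Wnt11, a ligand of the ureteric bud tip in the developing kidney, was counted 2 and 7 times in the controls and 18, 22 and 58 times in the knockouts, or 0.135 to 0.502 CPM against 1.02 to 3.86 CPM. Each knockout library was above both controls, and mouse 3 was the highest. Its log2 fold change of 2.67 (SE 0.88) had an adjusted p of 0.189 by edgeR's quasi-likelihood test and 0.0442 by DESeq2, and it was 1.86 without mouse 3. Omitting control mouse 1 gave 2.01 and omitting control mouse 3 gave 3.85.

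Wnt7b, which acts in collecting duct and medulla development, and Wnt7a, its closest relative, varied widely among the knockout mice. Wnt7b was at 4.31 and 6.67 CPM in the controls and at 20.3, 14.6 and 5.93 CPM in the knockouts, so that mouse 3 lay between the controls. Wnt7a was at 0.404 and 0.359 CPM in the controls and at 4.31, 1.48 and 0.666 CPM in the knockouts, again with mouse 3 nearest to the controls. Their log2 fold changes were 1.31 (SE 0.53) and 2.48 (SE 0.91), with adjusted p of 0.261 and 0.224 by edgeR's quasi-likelihood test. Without mouse 3, the knockout nearest to the controls in both genes, they were 1.68 and 2.91, with adjusted p of 0.00313 and 0.0158 by the same test. In that setting 18.9% of all genes were called. Wnt7a passed the count filter through the knockout kidneys alone. Opposite-strand exons of another gene cover 6.63% of the Wnt7a length, and whether counting used the strand is not given in the sources used here.

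Wnt2, a stromal ligand in several organs, was nearly absent from the controls, with 1 and 2 counts, and had 27, 15 and 6 counts in the knockouts. That is 3 counts against 48, a depth-adjusted ratio of 10.1 with an exact 95% interval of 3.24 to 50.4. The interval pools the mice of each group and covers counting error only, not the spread between mice. Because Wnt2 passed the count filter through the knockout kidneys alone, a higher knockout level was built in. The ratio and interval therefore cannot tell whether the genotypes differ. The adjusted p was 0.139 by edgeR's quasi-likelihood test, and 0.00851 without mouse 3, the knockout with the fewest Wnt2 counts. In that setting 18.9% of all genes were called.

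Wnt5a, the main ligand of the β-catenin-independent branch, was at 17.6 and 25.8 CPM in the controls and at 28.8, 31.8 and 32.7 CPM in the knockouts, all above both controls. The difference was small, 0.52 on the log2 scale (SE 0.19, adjusted p = 0.222 by edgeR's quasi-likelihood test). Its relative Wnt5b went the other way, with 7.28 and 9.26 CPM against 5.05, 5.08 and 3.06 CPM, all below both controls. The log2 fold change of Wnt5b was -0.91 (SE 0.30, adjusted p = 0.187 by edgeR's quasi-likelihood test), and 10.1% of its length overlaps an opposite-strand gene. Wnt9b, which the ureteric bud sends to nephron progenitors, was also below the controls in every knockout library, at 1.59, 2.24 and 2.07 CPM against 2.43 and 3.16 CPM, with a log2 fold change of -0.50 (SE 0.31, adjusted p = 0.428 by edgeR's quasi-likelihood test).

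The remaining tested ligands, Wnt10a, Wnt10b, Wnt16, Wnt2b and Wnt9a, had log2 fold changes from 0.10 to 0.89 with adjusted p of at least 0.481 by edgeR's quasi-likelihood test, and only Wnt10b among them had groups that did not overlap. The log2 fold change of Wnt10b ran from 0.13 to 2.47 with 1 mouse left out. Wnt1, Wnt3, Wnt3a, Wnt6, Wnt8a and Wnt8b had too few counts to be tested. Wnt6 reached the most of these, 8 counts in 1 library, and Wnt3 and Wnt3a had 0 of 78162215 counts, which allows a level of up to 0.0384 counts per 1000000 over all libraries.

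**Figure D2:**
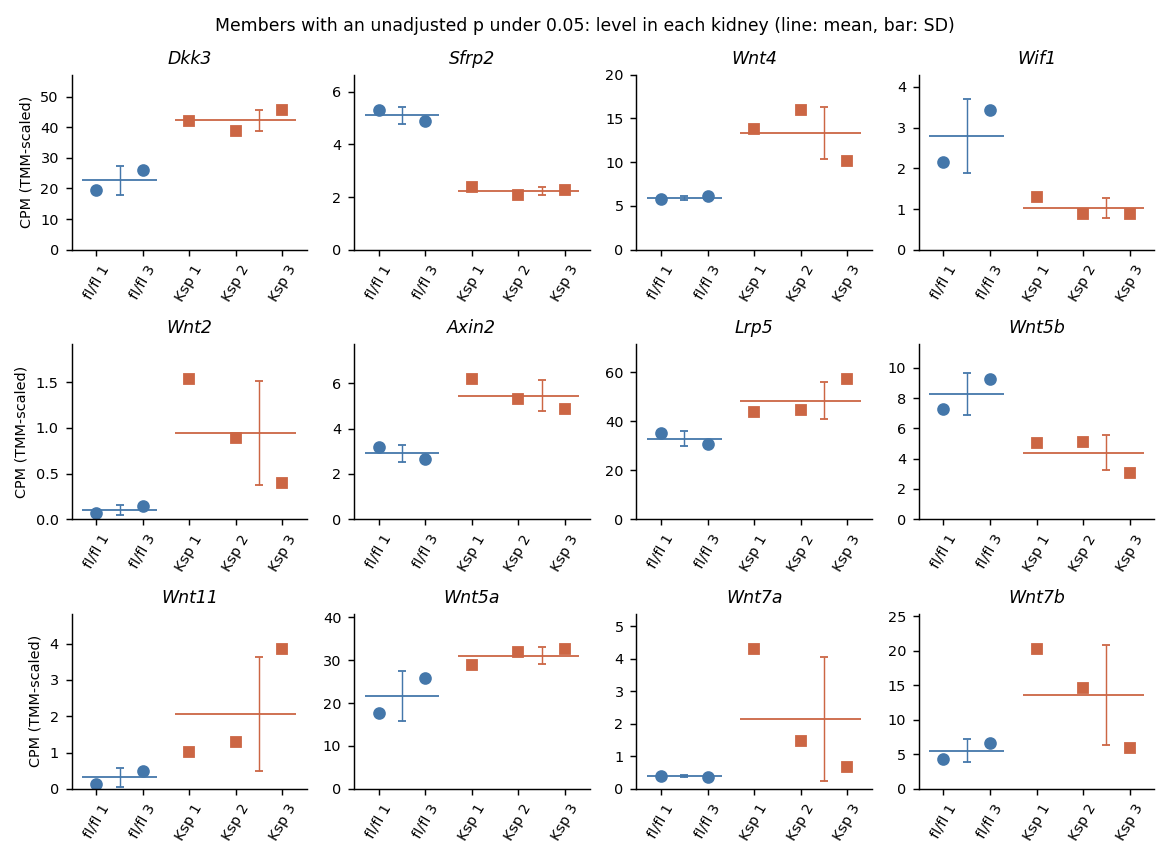
CPM (y axis, TMM-scaled, from 0) in each kidney for the 12 genes with an unadjusted p under 0.05, in order of that p; circles are Prdm16fl/fl mice 1 and 3, squares Ksp-Cre/Prdm16fl/fl mice 1, 2 and 3, lines means and bars SD. Wnt7b is the one panel in which the groups overlap (5.93 CPM in knockout mouse 3 against 6.67 CPM in control mouse 3), and Dkk3, Sfrp2 and Wnt4 show wide gaps relative to the spread.

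Summed over all 19 ligands, the level per length was 10.2 and 13.7 CPM per kb in the controls and 20.2, 18.4 and 15.2 CPM per kb in the knockouts, 1.502 times as high in the mean and above both controls in every knockout. The make-up of that sum differed as well. Wnt5b was the first ligand by level per length in both control kidneys, with 21.6% and 20.4% of the sum, and held 7.56%, 8.33% and 6.09% in the knockouts. Wnt4 held 14.9% and 11.6% in the controls and 17.9%, 22.7% and 17.4% in the knockouts. Each knockout kidney had another ligand in first place: Wnt7b with 22.8% in mouse 1, Wnt4 with 22.7% in mouse 2 and Wnt5a with 21.9% in mouse 3. Wnt10a, with 14.9% and 17.8% against 13.0%, 14.5% and 13.4%, was among the first 4 in every kidney. Stromal markers moved with the ligand sum: 12 markers of stroma and myofibroblasts, none of them at 0 in any library, summed to 117 and 186 CPM per kb in the controls and to 271, 265 and 187 CPM per kb in the knockouts. Of the 11 tested, 9 had a higher mean and 5 had groups that did not overlap (45.5%, beside 41.6% of all genes). The sum of injured-tubule markers, mostly Spp1, was also above both controls in every knockout. Their part in the result was not tested.

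Ligand release depends on Porcn, which adds the lipid, and Wls, which carries the modified ligand to the surface. Wls was among the most abundant of the 61 genes, at a mean of 128 TPM over the 5 libraries, where TPM is the deposited count per length scaled to 1 total. Its CPM was 314 and 315 in the controls and 315, 311 and 271 in the knockouts, a log2 fold change of -0.07 (SE 0.13, adjusted p = 0.798 by edgeR's quasi-likelihood test) that turned to 0.043 under scaling by library size. Porcn had a mean of 6.49 TPM and a log2 fold change of -0.04.

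Among the receptors the differences were small and in one direction. All 8 Frizzled genes tested had a higher mean in the knockouts, with log2 fold changes from 0.05 to 0.58. None had an unadjusted p under 0.05, beside 18.8% of all genes. The groups did not overlap for Fzd3, Fzd4 and Fzd6 (37.5% of the 8), near the 41.6% of all genes. Fzd5 and Fzd8 took the opposite sign when 1 mouse was left out (down to -0.09 and -0.01), as did Fzd2 (down to -0.12). By level per length Fzd4, known as the Norrin receptor of blood vessels, came first at a mean of 51.3 TPM, followed by Fzd1 at 34.7 TPM and Fzd7 at 23.5 TPM, whose ranges over the 5 libraries overlapped with their neighbours'. Fzd4 was at 145 and 128 CPM in the controls and 157, 152 and 176 CPM in the knockouts, a log2 fold change of 0.25 (SE 0.13, adjusted p = 0.362 by edgeR's quasi-likelihood test).

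Fzd1 showed how far mouse 3 set the spread: it was at 44.1 and 53.0 CPM in the controls and at 86.1, 74.1 and 49.8 CPM in the knockouts. The log2 fold change of Fzd1 was 0.53 with all mice (adjusted p = 0.312) and 0.73 without mouse 3 (adjusted p = 0.00611, both by edgeR's quasi-likelihood test). Fzd3, a receptor of the planar polarity branch, was called without mouse 3 too, at 0.73 (adjusted p = 0.0274 by the same test). In that setting 18.9% of all genes were called. Fzd9 and Fzd10 had at most 5 counts in a library and were not tested.

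All 5 co-receptors likewise had higher means in the knockouts, with a median log2 fold change of 0.24, although Ror1 reached -0.02 with 1 mouse left out. Lrp5, which with Lrp6 passes the signal to β-catenin, was at 35.0 and 30.8 CPM in the controls and at 43.8, 44.4 and 57.2 CPM in the knockouts, above both controls in every case. Its log2 fold change was 0.56 (SE 0.16, adjusted p = 0.156 by edgeR's quasi-likelihood test). Lrp6 was at 147 and 139 CPM against 146, 163 and 180 CPM and overlapped. Ryk, a kinase-like receptor without catalytic activity, had the highest level per length of the co-receptors, a mean of 46.9 TPM, overlapping with that of Lrp6 (40.3 TPM). It was at 57.7 and 55.5 CPM against 66.5, 63.1 and 71.0 CPM, with a log2 fold change of 0.24 (SE 0.11, adjusted p = 0.309 by edgeR's quasi-likelihood test). Ror1 and Ror2, receptors for Wnt5a, had log2 fold changes of 0.05 and 0.49.

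The summed level per length was 60.9 and 58.4 CPM per kb for Frizzled genes in the controls and 75.4, 71.9 and 71.8 CPM per kb in the knockouts, a ratio of 1.22. For the co-receptors it was 42.1 and 40.0 CPM per kb against 47.0, 47.8 and 53.9 CPM per kb, a ratio of 1.21. In both sums every knockout kidney was above both controls.

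The secreted inhibitors were split. Of the 9, 8 were tested, 3 with a higher and 5 with a lower mean in the knockouts, and the median log2 fold change was -0.71. Dkk3, a Dickkopf glycoprotein known as a stress product of injured tubules, was at 19.3 and 26.0 CPM in the controls and at 42.2, 38.7 and 45.8 CPM in the knockouts. It had the smallest p of the 48 genes, with means of 22.7 ± 4.69 (SD, n = 2) and 42.2 ± 3.54 CPM (SD, n = 3). The log2 fold change was 0.90 (SE 0.17, a 1.86-fold higher level), with an adjusted p of 0.0684 by edgeR's quasi-likelihood test, 0.00152 by DESeq2 and 0.00671 by edgeR without mouse 3.

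Sfrp2, a soluble Frizzled-like protein that captures Wnt ligands, was at 5.33 and 4.88 CPM in the controls and at 2.38, 2.07 and 2.27 CPM in the knockouts. The 3 knockout libraries were close to each other and less than any control, a 2.27-fold lower level (log2 fold change -1.19, SE 0.24). The adjusted p was 0.0779 by edgeR's quasi-likelihood test and 0.0144 by DESeq2, and omitting any single mouse moved the log2 fold change only within -1.25 to -1.12. Wif1, which binds Wnt ligands through its WIF domain, was at 2.16 and 3.44 CPM in the controls and at 1.31, 0.886 and 0.866 CPM in the knockouts. Its log2 fold change of -1.44 (SE 0.37) had an adjusted p of 0.121 by edgeR's quasi-likelihood test, and of 0.0364 without mouse 3.

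Sfrp1 was the most abundant inhibitor per length, at a mean of 61.2 TPM, and it varied widely: 168 and 126 CPM in the controls and 134, 102 and 39.6 CPM in the knockouts. Mouse 3 was the lowest and mouse 1 lay between the controls, so the groups overlapped (log2 fold change -0.68, SE 0.47, adjusted p = 0.478 by edgeR's quasi-likelihood test). Without mouse 3 the Sfrp1 log2 fold change was -0.32. Dkk2 was likewise lowest in mouse 3, at 25.6 and 22.7 CPM against 17.9, 20.3 and 5.20 CPM. Unlike for Sfrp1, every knockout library was below both controls. The log2 fold change of Dkk2 was -0.74, and -0.34 without mouse 3. Dkk1, which blocks Lrp5 and Lrp6, was counted 3 and 0 times in the controls and 17, 12 and 0 times in the knockouts. Sfrp4 and Sfrp5 overlapped between the groups, and Dkk4 had at most 1 count in a library.

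Summed per length, the 9 inhibitors were at 54.9 and 46.9 CPM per kb in the controls and at 50.4, 42.8 and 25.2 CPM per kb in the knockouts, with overlap. Sfrp1 made up 68.4% and 59.8% of that sum in the controls and 59.0%, 53.0% and 35.0% in the knockouts, and Dkk3 made up 9.82% and 15.4% against 23.3%, 25.2% and 50.6%. The ratio of summed ligand to summed inhibitor level was 0.185 and 0.293 in the controls and 0.401, 0.430 and 0.605 in the knockouts, so every knockout lay above both controls. With Sfrp1 left out the ratio was 0.587 and 0.728 against 0.978, 0.915 and 0.931. These ratios are descriptions of mRNA levels and were given no test. Genes count as inhibitors here by family, and whether each, Dkk3 included, inhibits Wnt signalling in these kidneys was not tested.

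**Figure D3:**
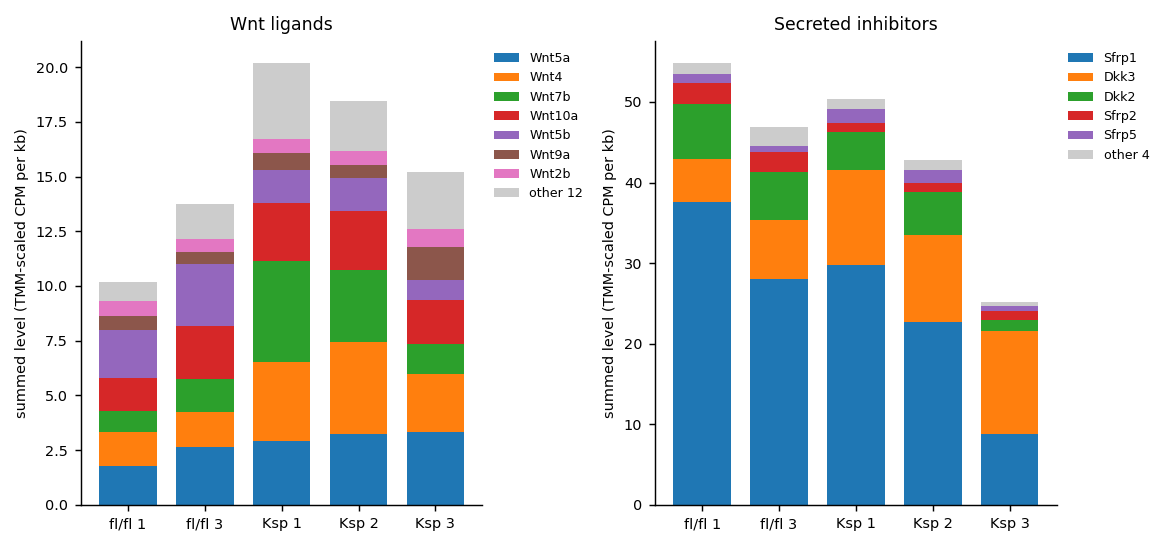
Stacked bars of the summed level (TMM-scaled CPM per kb, y axis from 0) of the 19 Wnt ligands (left) and the 9 secreted inhibitors (right) in each kidney, coloured by gene, with fl/fl for Prdm16fl/fl and Ksp for Ksp-Cre/Prdm16fl/fl mice. The ligand bars reach 10.2 and 13.7 in the controls and 15.2 to 20.2 in the knockouts; the inhibitor bar is shortest in knockout mouse 3, at 25.2, where Sfrp1 is down to 35.0% of it.

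The R-spondin module was split. Of its 9 genes, 5 were tested, 3 with a higher and 2 with a lower mean in the knockouts, with a median log2 fold change of 0.0032. All 5 overlapped between the groups, where 41.6% of all genes did not overlap. Lgr5 and Rspo3 had at most 17 counts in a library, so the median and the overlap say little about the module. Lgr4, an R-spondin receptor that kidney development needs, was the most abundant at a mean of 97.5 TPM. It was at 191 and 194 CPM in the controls and at 152, 191 and 310 CPM in the knockouts, so mouse 3 was above and mouse 1 below both controls. Its log2 fold change was 0.18 (SE 0.30, adjusted p = 0.787 by edgeR's quasi-likelihood test) and turned to -0.16 without mouse 3. The ligases Znrf3 and Rnf43, themselves β-catenin targets in other epithelia, had log2 fold changes of 0.12 and 0.00 (SE 0.18 and 0.27). Lgr5, a marker of stem cells in the intestine, was near the detection limit at 0.20 to 1.005 CPM, and Rspo3 had a log2 fold change of -0.53 (SE 0.46). Lgr6, Rspo1, Rspo2 and Rspo4 had 1 to 21 counts in all libraries together and were not tested.

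Inside the cell, Ctnnb1, which encodes β-catenin, had the highest level per length of the 61 genes, a mean of 348 TPM. It was at 472 and 450 CPM in the controls and at 554, 528 and 575 CPM in the knockouts, above both controls in every case, with a log2 fold change of 0.26 (SE 0.13, adjusted p = 0.338 by edgeR's quasi-likelihood test). The β-catenin protein also binds cadherins at the adherens junction, apart from its role in Wnt signalling. Axin2, a scaffold of the destruction complex and a widely used readout of β-catenin transcription, was at 3.17 and 2.65 CPM in the controls and at 6.19, 5.32 and 4.86 CPM in the knockouts. The log2 fold change of Axin2 was 0.90 (SE 0.25, a 1.87-fold higher level), with an adjusted p of 0.142 by edgeR's quasi-likelihood test, 0.0805 by DESeq2 and 0.0227 by edgeR without mouse 3. Its constitutive relative Axin1 was at 44.0 and 41.4 CPM against 44.4, 50.03 and 51.0 CPM, a log2 fold change of 0.18 (SE 0.12).

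The TCF/LEF factors did not show a like difference. Tcf7, Tcf7l1 and Tcf7l2 had log2 fold changes between -0.00092 and 0.03 with overlapping groups. Lef1 was at 0.472 and 1.79 CPM in the controls and at 0.851, 1.12 and 1.07 CPM in the knockouts, and its log2 fold change of -0.15 (SE 0.58) turned to 1.09 without Prdm16fl/fl mouse 3. Tcf7l2 had the highest level per length of these factors, at a mean of 8.76 TPM against 1.47 TPM for Tcf7, 1.36 TPM for Tcf7l1 and 0.558 TPM for Lef1.

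**Figure D4:**
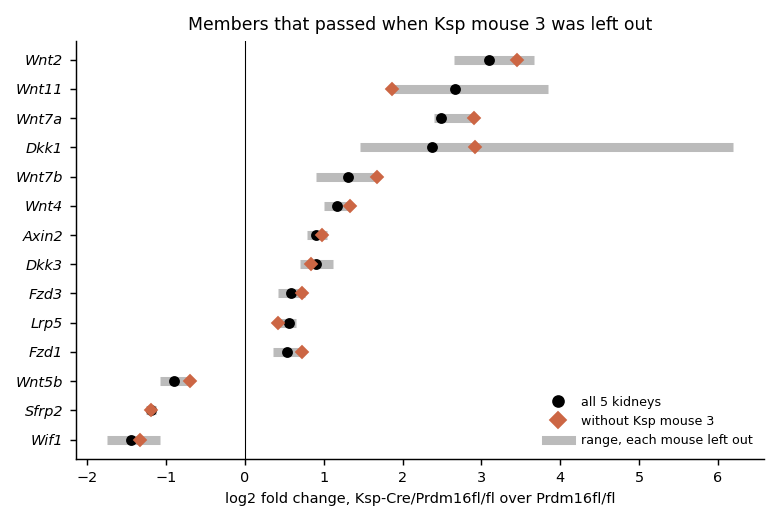
Log2 fold change (Ksp-Cre/Prdm16fl/fl over Prdm16fl/fl, x axis) of the 14 genes called by edgeR when knockout mouse 3 was left out: black points use all 5 kidneys, diamonds leave out that mouse, and grey bars span the values with each mouse left out in turn. Each gene kept its sign, but the genes were chosen by 1 of the fits that the bars span, so this is no separate support. Wnt2, Wnt7a, Wnt11 and Dkk1 also passed the count filter through the knockout kidneys alone. The bar of Wnt4 runs from 1.01 to 1.33 and that of Dkk1, which rests on few counts, from 1.45 to 6.19.

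The 14 genes called without Ksp-Cre/Prdm16fl/fl mouse 3 were Axin2, Dkk1, Dkk3, Fzd1, Fzd3, Lrp5, Wnt11, Wnt2, Wnt4, Wnt7a and Wnt7b, with a higher mean in the remaining 2 knockout kidneys, and Sfrp2, Wif1 and Wnt5b, with a lower one. In that setting 18.9% of all genes were called. Leaving out knockout mouse 1 or 2 gave 0 calls among these genes and 0 among all genes. Leaving out a control mouse leaves 1 control, and calls from such a fit are not read here. Mouse 3 differed from the other knockouts in the members themselves, with the highest level of Wnt11, Lgr4 and Lrp5 and the lowest of Wnt2, Wnt7a, Wnt7b, Sfrp1 and Dkk2 among the 3 mice. It also had the lowest summed level of thick limb and distal nephron markers (486 CPM per kb, against 963 and 1166 in the other knockouts and 1394 to 1546 in the controls) and the lowest of stromal markers among the knockouts (187 CPM per kb). The part of these in the results was not tested.

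The rest of the pathway was read from 6 lists that together name 148 genes, 7 of them among the 61. Of the 139 tested, 0 passed an adjusted p of 0.05 by edgeR's quasi-likelihood test, 34 (24.5%) had an unadjusted p under 0.05 (23 higher, 11 lower, beside 18.8% of all genes) and DESeq2 called 15 of 137 (9 higher, 6 lower, beside 7.54% of all genes). Without mouse 3 the edgeR test called 31, Axin2 and Dkk1 of the 61 genes among them, and 18.9% of all genes. The list of reported β-catenin target genes had the highest median, 0.33, with 24 of 34 higher, beside 8857 of 16394 over all genes. Its largest value, 2.37, was that of Dkk1, 1 of the 61 genes, which passed the count filter through the knockout kidneys alone. In that list Myc, the growth-promoting transcription factor, came nearest to the threshold, at 21.4 and 18.2 CPM in the controls and 45.2, 36.3 and 48.6 CPM in the knockouts (log2 fold change 1.13, adjusted p = 0.0505 by edgeR's quasi-likelihood test). Vegfa, the endothelial growth factor made by tubules and podocytes, was lower, with a log2 fold change of -0.87 (adjusted p = 0.061 by the same test), and 10 of the 34 targets had a lower mean.

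Other extracellular modulators were evenly split, with 10 higher and 10 lower of 20 tested. The glypican Gpc3, a cell-surface proteoglycan that binds Wnt ligands, was at 124 and 121 CPM in the controls and 236, 253 and 200 CPM in the knockouts (log2 fold change 0.90, adjusted p = 0.0541 by edgeR's quasi-likelihood test). Shisa3, of a family that retains Frizzled proteins inside the cell, had a log2 fold change of -0.99 (adjusted p = 0.0726 by the same test).

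Among nuclear coactivators and Groucho corepressors 9 were higher and 7 lower. Both genes with the smallest p were of the Groucho family, Tle5 at -0.77 (adjusted p = 0.0685) and Tle2 at -0.73 (adjusted p = 0.196, both by edgeR's quasi-likelihood test). Whether either acts as a corepressor here was not tested. Cytoplasmic regulators of β-catenin had a median log2 fold change of 0.15 (17 higher, 10 lower), with the casein kinases Csnk1e at 0.68 and Csnk1d at 0.37 having the smallest p. In the calcium branch (median 0.24, 13 higher, 6 lower) these were phospholipase Plcb1 at -0.61 and protein kinase Prkca at -0.35.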

How the data were processed

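RNA-seq tables of 5 mouse kidneys (2 Prdm16fl/fl, 3 Ksp-Cre/Prdm16fl/fl, grouped by the genotype in the labels) were analysed. The authors removed adapter and low-quality reads and deposited 1 table per library with the raw count of reads on every gene. The authors also deposited TPM and FPKM made from that count by gene length and library total, and both were recomputed from the counts with rounding differences only. The submitters' processing notes name CASAVA, featureCounts 2.0.1 and DESeq2 1.16.1, and hg38, a human build, for these mouse libraries. The files' positions are not those of GRCm38, 1 of 61 genes excepted. The aligner and any strand setting are not given in the sources used here. Lines of 5 genes were rejoined.

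edgeR 4.0.16 in R 4.3.3 was used to keep 16394 genes (filterByExpr), scale by TMM and run the quasi-likelihood test without covariates, with Benjamini-Hochberg adjustment over all of them; an adjusted p under 0.05 was called. CPM values are TMM-scaled. CPM per kb divides them by the length in the files, and summed levels are sums of that. Total counts of 14939040 to 16425161 make counting error small for all but genes with few counts, and intervals cover counting error only. Controls were littermates per the study's methods, which do not say which of these mice shared a litter, so p-values measure the spread between these mice. Replicates were no duplicates: a chi-square per degree of freedom was 9.89 for the closest pair.

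The 61 genes, the lists and the tests were chosen with earlier results of these data known. Named are genes with an unadjusted p under 0.05, the gene of each role with the highest mean TPM, feedback genes and kidney-development ligands named in the plan, and the 2 genes of each pathway list with the smallest p. Of the 6 pathway lists, 1 is counted in the totals and not reported here on its own. Others, such as Fzd1, Dkk1 and Dkk2, and the printed Wnt11 promoter, were added after their values were seen. Alternatives were DESeq2 1.42.0, other scalings and filters, each mouse left out, the mouse number as a block, a loess correction for gene length (span 0.3), and limma 3.58.1 on log2(FPKM + 1). Tests were first tried on simulated counts. Promoter sequences are from RefSeq (GRCm38.p6), with entries for 41 of the 61 genes. Of the marker genes, Trac, Trbc2, Ighm and Igkc were not used here. Python 3.11.15, with pandas 2.3.3 and matplotlib 3.10.9, served for tables and plots.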

Additional observations from a re-analysis of the deposited data

How the results depend on the processing

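With 2 control and 3 knockout kidneys, the number of genes called depended on the processing more than the fold changes did. Over all genes the 160 called became 1183 with DESeq2, 51 with scaling by library size, 471 without the filter and 0 with the replicate block. With each knockout mouse left out 0 to 3053 were called. Of the knockout mice, only leaving out Ksp-Cre/Prdm16fl/fl mouse 3 gave calls, 3053. Among the 48 Wnt genes tested the 0 called became 4 with DESeq2, 1 (Dkk3) without the filter, and 0 to 14 with each knockout mouse left out. The pathway lists, which share 7 genes with the 61, went from 0 called to 15 with DESeq2 and 4 without the filter. They had 1 called (Myc) with at least 10 counts in every library, and 0 to 31 (Axin2 and Dkk1 among them) with each knockout mouse left out. The median log2 fold change of 0.19 was 0.30 under scaling by library size, where the median of all genes was 0.149, 0.17 with the replicate block, 0.14 after the gene-length correction, which moved the median of all genes from 0.019 to 0.043, and 0.17 to 0.23 with each mouse left out. The cause of these shifts was not tested.

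Among the genes named by the rule, the sign of 6 turned. With each mouse left out Lef1 ran from -0.82 to 1.09 and Lgr5 from -1.06 to 0.23 (positive without Prdm16fl/fl mouse 3), and Lgr4 from -0.16 to 0.38 (negative without Ksp-Cre/Prdm16fl/fl mouse 3). Rnf43 was -0.00059 with at least 10 counts in every library, -0.13 with the replicate block and -0.10 to 0.19 with each mouse left out. Tcf7 was 0.00048 with DESeq2, 0.12 under scaling by library size, 0.014 with the upper quartile, 0.00024 without the filter and -0.10 to 0.10 with each mouse left out. Wls was 0.043 under scaling by library size and 0.034 by limma on FPKM. Of the other values of the genes named by the rule, 238 kept their sign and side of the threshold and 16 passed it with the same sign. Of the remaining genes, Fzd2, Fzd5, Fzd8, Wnt10a, Wnt2b, Ror1, Porcn, Tcf7l1 and Tcf7l2 took the opposite sign with at least 1 mouse left out, and Porcn also under another setting (up to 0.064). Mouse numbers 1 and 3 occur in both groups, and whether they pair the mice is not stated in the sources used here. Deviations from the group means correlated at 9e-04 for number 1 and -0.022 for number 3. These correlations cannot decide whether the numbers pair the mice, because the deviations of the controls from their own mean are mirror images. Against knockout mouse 1, control mouse 3 therefore gave -9e-04. With the replicate block 0 genes were called, Wnt genes included. The 13 genes not tested had at most 8 counts in a library, so differences in them were not detectable at this depth.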
